A study of Mus musculus with 6 samples.

Results

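Liver sinusoidal endothelial markers were taken as the rows of the deposited liver RNA-seq table that carry 1 of 9 gene symbols of these cells: Stab1, Stab2, Lyve1, Clec4g, Oit3, F8, Dnase1l3, Gpr182 and Mrc1. All 9 were among the 55401 genes of the table, and all 9 passed the filter on low counts, with 18931 genes tested in all. The livers came from 3 male Alb-Cre Prdx1 fl/fl mice and 3 male Prdx1 fl/fl mice, 8 weeks old at the start and all kept for 5 weeks on the diet that the labels call MCD. Both groups carry the floxed Prdx1 alleles, and only the first carries Cre under the albumin promoter, which is active in hepatocytes. Because the second group has no Cre, loss of Prdx1 and presence of the transgene cannot be told apart, and no group on another diet was analysed here. Whether endothelial cells lost Prdx1 was not tested.

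Liver sinusoidal endothelial cells line the hepatic capillaries. They are fenestrated, lack an organised basement membrane and clear waste macromolecules from blood through scavenger and lectin receptors. They also secrete coagulation factor VIII and signals that act on neighbouring hepatocytes. In fibrotic liver these cells can lose fenestrae and gain features of ordinary capillaries, such as CD34 and a basement membrane, a state known as capillarisation. In whole-liver RNA, fewer cells of a type and less RNA per cell cannot be told apart.

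Promoter sequence was available for 5 of the 9 genes (RefSeq, GRCm38.p6). The 250 bases before the start annotated by RefSeq are shown for Stab1 and Mrc1, which rose in Alb-Cre livers, and for Clec4g, which fell, because these genes moved in opposite directions although sinusoidal endothelium expresses all of them. Each is written 5′ to 3′ on the strand of the gene, and capitals mark every match on either strand to 4 motifs. The letters searched were AGATAA for the motif of GATA factors, AGGAAG for that of ETS factors, TGANTCA for that of AP-1 and TGCTGA for part of the motif of MAF factors. These are chr14:31168642-31168891 (minus strand) for Stab1, chr2:14229164-14229413 (plus strand) for Mrc1 and chr8:3720652-3720901 (minus strand) for Clec4g. The RefSeq starts differ from the gene ends of the deposited table given below for 2 of these genes: the Clec4g window begins after 1998 further bases upstream of the gene in the table, and the last 22 bases of the Mrc1 window lie inside it.
Stab1: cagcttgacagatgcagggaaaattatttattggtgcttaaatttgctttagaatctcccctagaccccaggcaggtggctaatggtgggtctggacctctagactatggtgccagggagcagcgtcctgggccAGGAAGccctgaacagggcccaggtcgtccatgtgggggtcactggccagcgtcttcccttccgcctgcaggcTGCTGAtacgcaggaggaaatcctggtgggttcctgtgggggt
Mrc1: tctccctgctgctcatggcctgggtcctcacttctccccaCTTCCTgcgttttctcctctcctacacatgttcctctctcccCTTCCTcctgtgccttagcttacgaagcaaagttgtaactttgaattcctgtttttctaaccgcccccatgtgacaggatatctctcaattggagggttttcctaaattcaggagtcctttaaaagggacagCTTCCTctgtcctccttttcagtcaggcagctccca
Clec4g: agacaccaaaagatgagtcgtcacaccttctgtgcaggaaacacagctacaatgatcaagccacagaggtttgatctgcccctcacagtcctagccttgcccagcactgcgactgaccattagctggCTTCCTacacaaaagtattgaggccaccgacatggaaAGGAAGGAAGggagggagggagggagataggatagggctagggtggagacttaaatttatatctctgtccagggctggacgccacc
The ETS letters were found in the window of 4 of the 5 genes (Stab1, Stab2, Clec4g and Mrc1), and in 29.5% of 32851 mouse promoter windows of the same length. In Clec4g, 2 of the 3 ETS matches overlap each other. The MAF letters were found in Stab1 (16.1% of all windows). The GATA letters (3281 of the 32851 windows) and the AP-1 letters (6.7%) were found in none of the 5. Of the genes with a window, Stab1 and Mrc1, which rose, and Clec4g, which fell, carried the ETS letters. The window of F8, which also fell, held none of the 4 motifs. However, all 250 bases of the F8 window lie inside the gene as the deposited table places it, so sequence upstream of that gene was not searched.

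Deposited counts totalled 58790874 to 78291273 in the Alb-Cre libraries and 63189210 to 67319086 in the fl/fl libraries, and the 9 markers had 1154 to 18484 counts per library. Prdx1 (ENSMUSG00000028691) averaged 88.3 ± 19.6 CPM in Alb-Cre livers and 626 ± 49.5 CPM in fl/fl livers (SD, n = 3 each), in the direction of the genotype labels. The tissue label was borne out by albumin at 43329 ± 6153 CPM in Alb-Cre livers and 75934 ± 10029 CPM in fl/fl livers. The genotypes lay on either side of the first principal component, which took up 60.2% of the variance, and no library was left out. The labels give separate mice but no litter or batch, so p-values measure the spread between these mice.

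Of the 9 markers, Stab1 and Mrc1 rose in Alb-Cre livers, F8, Oit3, Dnase1l3 and Clec4g fell, and Stab2, Lyve1 and Gpr182 did not pass the test. These 6 calls out of 9 stand beside a background of 37.9% of all tested genes called by edgeR's quasi-likelihood test at a Benjamini-Hochberg adjusted p under 0.05. The background was 19.9% higher and 18.0% lower. In 8 of the 9 markers the libraries of the groups did not overlap (2 higher, 6 lower), beside 53.0% of all tested genes (28.8% higher, 24.2% lower). The median log2 fold change of the markers was -0.39, and that of all tested genes was 0.05. Summed over the 9 markers, the level was 590 to 672 CPM in Alb-Cre livers and 631 to 679 CPM in fl/fl livers, so the groups overlapped in the sum while its members went in both directions. CPM values are counts scaled to a common library size with TMM factors, and log2 fold changes are Alb-Cre over fl/fl with their standard error (SE).

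**Figure D1:**
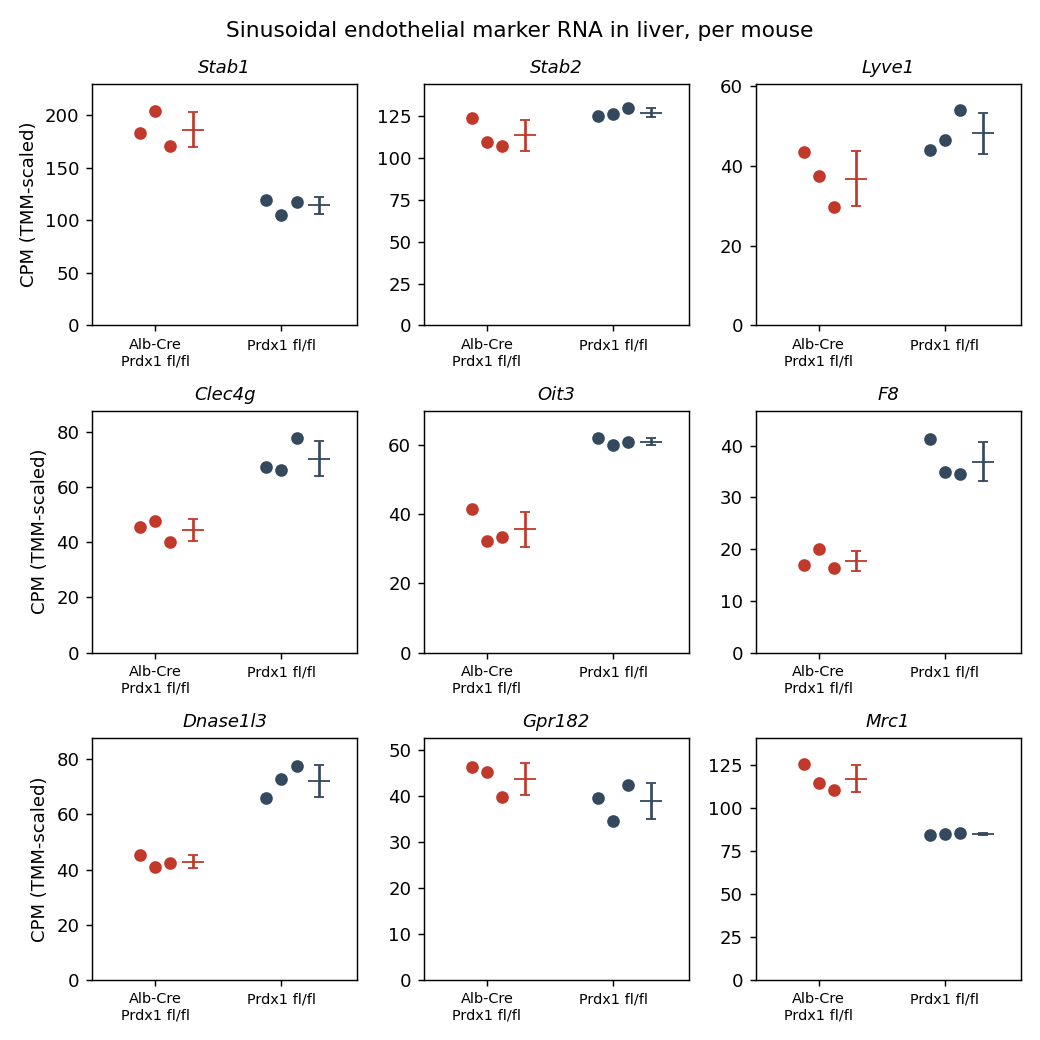
TMM-scaled CPM of the 9 markers in each liver (1 point per mouse, axes from 0), with Alb-Cre Prdx1 fl/fl on the left and Prdx1 fl/fl on the right and the mean ± SD beside the points (n = 3 each). The libraries of the groups overlap for Gpr182 alone, and the groups nearly meet for Stab2 and Lyve1, which did not pass the test.

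Among the scavenger receptors, the stabilins did not move alike. Stab1 (stabilin-1, ENSMUSG00000042286, chromosome 14, 31139013 to 31168641, minus strand, GRCm38) is a large receptor for matrix and modified proteins made by sinusoidal endothelium and by some macrophages. It had 183, 204 and 171 CPM in Alb-Cre livers, against 120, 105 and 117 CPM in fl/fl livers. The lowest Alb-Cre liver was above the highest fl/fl liver, and the rise was 0.71 ± 0.10 on the log2 scale (edgeR adjusted p = 0.00125). Stab2 (stabilin-2, ENSMUSG00000035459, chromosome 10, 86841198 to 87008025, minus strand) is the main hyaluronan clearance receptor of these cells. It had 124, 109 and 107 CPM in Alb-Cre livers, against 125, 126 and 130 CPM in fl/fl livers. The highest Alb-Cre liver lay just under the lowest fl/fl liver, and the log2 fold change of -0.16 ± 0.09 did not pass (edgeR adjusted p = 0.185). Its sign turned with the scaling, to 0.21 with library sizes alone and 0.18 in limma on the deposited FPKM.

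The ratio of the stabilins within each library does not depend on library scaling. The log2 ratio of Stab1 to Stab2 was 0.71 ± 0.17 in Alb-Cre livers and -0.16 ± 0.10 in fl/fl livers (SD, n = 3 each). Stab1 thus exceeded Stab2 in every Alb-Cre library and was below it in every fl/fl library by CPM. The ratio differed by 0.87 (two-sided exact permutation p = 0.1, which no comparison of 3 with 3 can go below, and not adjusted over the 36 pairs of markers).

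Mrc1 (the mannose receptor CD206, ENSMUSG00000026712, chromosome 2, 14229392 to 14332057, plus strand) takes up mannosylated glycoproteins and collagen fragments and is also a macrophage gene. It had 126, 114 and 111 CPM in Alb-Cre livers, against 84.0, 84.9 and 85.2 CPM in fl/fl livers. Every Alb-Cre liver was above every fl/fl liver, and Mrc1 rose by 0.46 ± 0.08 (edgeR adjusted p = 0.0037). This is below the 1.5-fold change that was also tried as a condition.

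Most of the macrophage genes listed here moved with Stab1 and Mrc1. Among 14 genes that mark Kupffer cells there were 10 that rose and 1 that fell (78.6% called, against 37.9% of all tested genes). The median log2 fold change of the 14 was 0.93, and their summed level was 3074 to 3396 CPM in Alb-Cre livers and 1323 to 1755 CPM in fl/fl livers. The complement genes C1qb (1.47 ± 0.10) and C1qc (1.46 ± 0.10), the complement receptor Vsig4 (1.905 ± 0.14) and the growth factor receptor Csf1r (1.33 ± 0.10) had the smallest p. The gene that fell was the ficolin Fcna (-0.69 ± 0.15), a call that was lost with library sizes alone (-0.32) and in limma on the deposited FPKM. The 3 that did not pass were Slc40a1 (0.25 ± 0.10), Marco (-0.05 ± 0.19) and Cd163 (-0.31 ± 0.35). Of 9 markers of monocyte-derived macrophages, 8 rose and none fell (88.9% called, against 37.9% of all tested genes). The median of the 9 was 1.25, with a sum of 1055 to 1094 CPM in Alb-Cre livers and 441 to 550 CPM in fl/fl livers. Trem2 (1.74 ± 0.11), Lyz2 (1.25 ± 0.09), Cd9 (1.22 ± 0.11) and Ms4a7 (2.17 ± 0.26) led them. Only 5 of these 9 passed without Alb-Cre replicate 2, without fl/fl replicate 2 or without fl/fl replicate 3. None of the markers of either list was at 0 in a whole group. Their part in the rise of Stab1 and Mrc1 was not tested.

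Clec4g (LSECtin, ENSMUSG00000074491, chromosome 8, 3707064 to 3718653, minus strand) is a C-type lectin of liver and lymph node sinusoids. It had 45.4, 47.6 and 40.0 CPM in Alb-Cre livers, against 67.1, 65.9 and 77.7 CPM in fl/fl livers. The groups were well apart, and Clec4g fell by 0.67 on the log2 scale (SE 0.11, edgeR adjusted p = 0.00245). The call was lost when libraries were scaled by size alone (-0.29 ± 0.12, edgeR adjusted p = 0.0876) and in limma on log2(FPKM + 0.5), with -0.31 ± 0.11 and an adjusted p of 0.0659. Clec4g had the highest FPKM of the 9 markers in fl/fl livers.

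Lyve1 (ENSMUSG00000030787, chromosome 7, 110850607 to 110863239, minus strand) is a hyaluronan receptor that sinusoidal and lymphatic endothelium share. It had 43.6, 37.4 and 29.6 CPM in Alb-Cre livers, against 44.0, 46.6 and 54.0 CPM in fl/fl livers. The highest Alb-Cre liver lay just under the lowest fl/fl liver, and the spread within Alb-Cre livers was the widest of the 9 markers relative to the mean. The log2 fold change was -0.39 ± 0.15 (edgeR adjusted p = 0.0855), and it passed without Alb-Cre replicate 1, at -0.52 ± 0.15 (edgeR adjusted p = 0.047). With library sizes alone it was -0.01 ± 0.16.

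Genes of hyaluronan turnover, the ligand of Lyve1 and Stab2, gave a mixed picture. Of 10 listed genes in the table, 7 were tested, 1 rose and 3 fell, with 2 called higher without Alb-Cre replicate 3. The share of those tested that was called was 57.1%, against 37.9% of all tested genes. The hyaluronan receptor Cd44 rose by 0.65 ± 0.12, to 60.8 ± 8.01 CPM in Alb-Cre livers, against 38.9 ± 3.67 CPM in fl/fl livers. The mitotic hyaluronan-binding protein Hmmr fell to 0.833 ± 0.196 CPM in Alb-Cre livers, against 4.50 ± 1.70 CPM in fl/fl livers. The hyaluronidase Hyal1 fell by 0.69 (SE 0.16) and the plasma protease Habp2, which hepatocytes make, by 0.44 (SE 0.10). Both of these calls were lost with library sizes alone and in limma on the deposited FPKM, and that of Habp2 also under the 1.5-fold condition. The synthase gene Has2 had no counts in any library. Markers of lymphatic endothelium, the other vessels with Lyve1, numbered 6, of which 4 rose: Reln (0.82 ± 0.11), Pdpn (1.84 ± 0.42), Prox1 (0.49 ± 0.13) and Ccl21a (1.66 ± 0.50). In liver Reln is also a stellate cell gene and Prox1 a hepatocyte gene. Pdpn and Ccl21a, at 1.86 ± 0.201 and 1.02 ± 0.295 CPM in Alb-Cre livers and 0.518 ± 0.233 and 0.323 ± 0.0932 CPM in fl/fl livers, lay near the low end of detection. The share of the 6 that was called was 66.7%, against 37.9% of all tested genes. Only 2 of the 6 passed without Alb-Cre replicate 3, without fl/fl replicate 1 or without fl/fl replicate 2. The summed level of the list was 387 to 431 CPM in Alb-Cre livers and 269 to 301 CPM in fl/fl livers. Most of it was Reln and Prox1, at 216 ± 29.8 and 131 ± 14.6 CPM in Alb-Cre livers. In fl/fl livers they stood at 122 ± 3.83 and 93.6 ± 13.3 CPM. The 2 that did not pass were Flt4 and Mmrn1 (2.29 ± 1.02). Flt4 stood at 64.5 ± 10.1 CPM in Alb-Cre livers and 64.2 ± 6.90 CPM in fl/fl livers (edgeR adjusted p = 0.976). None of the 6 was at 0 in a whole group, and their part in the level of Lyve1 was not tested.

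Of the markers that are secreted or not scavenger receptors, 3 fell by similar or larger amounts. F8 (ENSMUSG00000031196, chromosome X, 75172715 to 75382316, minus strand) encodes coagulation factor VIII, for which endothelium is the main source. It had 17.01, 19.998 and 16.31 CPM in Alb-Cre livers, against 41.24, 35.01 and 34.49 CPM in fl/fl livers. The Alb-Cre mean was 48.1% of the fl/fl mean, the lowest percentage among the 9 markers, and F8 fell by 1.05 (log2, SE 0.12, edgeR adjusted p = 0.000644). The gene for von Willebrand factor, Vwf, the carrier of factor VIII in blood and a gene of larger vessels, was at 19.5 ± 2.84 CPM in Alb-Cre livers and 12.97 ± 0.419 CPM in fl/fl livers (log2 0.59 ± 0.14, edgeR adjusted p = 0.0112). It was named here after its value was seen.

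Oit3 (ENSMUSG00000009654, chromosome 10, 59422958 to 59441778, minus strand) encodes a zona pellucida domain protein of these cells. It had 41.5, 32.1 and 33.4 CPM in Alb-Cre livers, against 61.9, 59.8 and 60.9 CPM in fl/fl livers, where the values lay close together. It fell by 0.77 (log2, SE 0.11, edgeR adjusted p = 0.00165). Dnase1l3 (ENSMUSG00000025279, chromosome 14, 7964533 to 7994573, minus strand) encodes a secreted nuclease that degrades DNA of chromatin and vesicles. It had 45.3, 41.0 and 42.4 CPM in Alb-Cre livers, against 65.9, 72.9 and 77.5 CPM in fl/fl livers. The groups did not overlap and it fell by 0.75 (log2, SE 0.10, edgeR adjusted p = 0.000857).

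Dnase1l3 is also known from dendritic cells. Of 6 dendritic cell markers, Zbtb46 (0.86 ± 0.19) and Flt3 (1.24 ± 0.39) rose, which is 33.3%, against 37.9% of all tested genes. The other 4 did not pass: Clec10a (0.93 ± 0.45), Xcr1 (0.61 ± 0.42), Siglech (0.46 ± 0.33) and Clec9a, which went the other way (-0.58 ± 0.46). The summed level of the 6 was 24.2 to 34.5 CPM in Alb-Cre livers and 19.8 to 24.2 CPM in fl/fl livers. None of the 6 was at 0 in a whole group, and their part in the level of Dnase1l3 was not tested. Flt3 did not pass without any of the Alb-Cre replicates or without fl/fl replicate 2, with edgeR adjusted p up to 0.13, which left 1 gene called.

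Gpr182 (ENSMUSG00000058396, chromosome 10, 127747276 to 127751732, minus strand) encodes an atypical chemokine receptor of sinusoidal and lymphatic endothelium that takes up CXCL10, CXCL12 and CXCL13. It had 46.3, 45.3 and 39.8 CPM in Alb-Cre livers, against 39.7, 34.7 and 42.5 CPM in fl/fl livers. The groups overlapped, and the log2 fold change of 0.17 ± 0.11 did not pass (edgeR adjusted p = 0.279). With library sizes alone it passed, at 0.54 ± 0.13 (edgeR adjusted p = 0.0106). Its 3′ end overlaps that of Zbtb39 on the other strand, which averaged 2225 counts in Alb-Cre livers and 988 counts in fl/fl livers, and whether the counting used strand is not given in the sources used here. The same holds for Stab1 and Nt5dc2, at 1297 counts in Alb-Cre livers and 1098 counts in fl/fl livers.

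**Figure D2:**
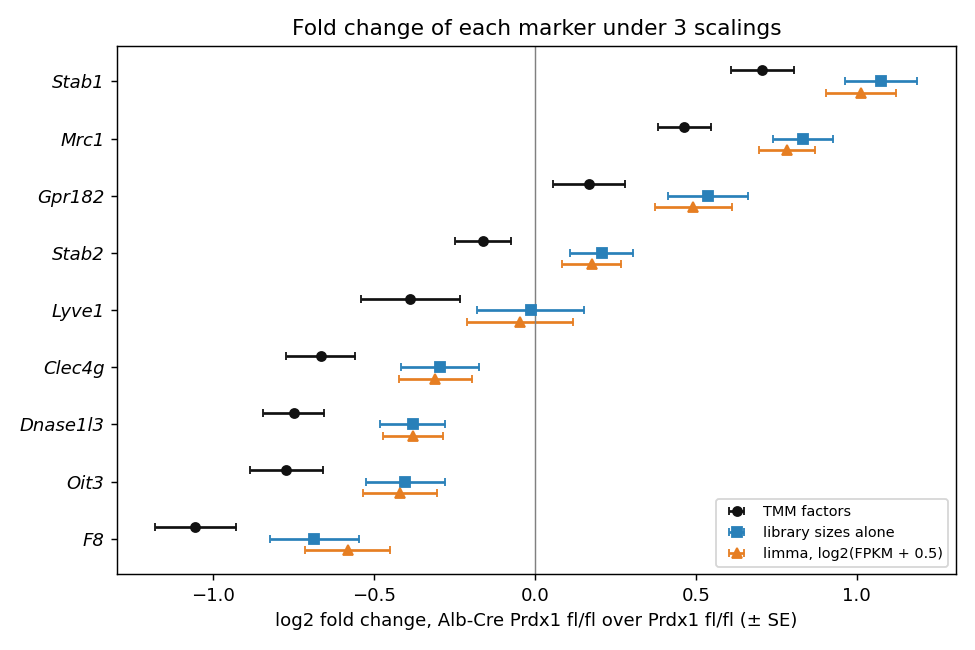
Log2 fold change (Alb-Cre Prdx1 fl/fl over Prdx1 fl/fl, bars ± SE, n = 3 each) of the 9 markers with TMM factors and with library sizes alone, both in edgeR, and in limma on log2(FPKM + 0.5). The order from Stab1 at the top to F8 at the bottom was the same in all 3 settings. The zero line falls between Gpr182 and Stab2 with TMM factors and between Stab2 and Lyve1 otherwise.

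The level set by the scaling differed between settings. Over all tested genes the median log2 fold change of 0.05 became 0.41 when libraries were scaled by size alone and 0.25 in limma on log2(FPKM + 0.5). The share of called genes that were higher was 52.5%, 83.8% and 83.0% in the same order. Relative to that median, F8 stood at -1.10 both with TMM factors and with library sizes alone, Oit3 at -0.82, Clec4g at -0.71, Stab2 at -0.21, Gpr182 at 0.12, Mrc1 at 0.42 and Stab1 at 0.66, each the same under both. Dnase1l3 stood at -0.80 with TMM factors and -0.79 with library sizes alone, and Lyve1 at -0.43 with both. In limma on log2(FPKM + 0.5) the distances from the median were not the same: F8 stood at -0.83, Oit3 at -0.66, Dnase1l3 at -0.62, Clec4g at -0.555 and Lyve1 at -0.29. In that setting Stab2 stood at -0.07, Gpr182 at 0.25, Mrc1 at 0.54 and Stab1 at 0.77.

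Per length, in FPKM as deposited, the order of the markers differed between the groups. In Alb-Cre livers Mrc1 (18.8 ± 1.69 FPKM), Stab1 (18.5 ± 2.11) and Clec4g (18.5 ± 2.13) came first and overlapped in their libraries. Below them, without overlap with Clec4g, came Stab2 (13.3 ± 1.35), Oit3 (13.1 ± 2.06), Lyve1 (12.98 ± 2.77) and Gpr182 (11.4 ± 1.22), each overlapping the next, and then Dnase1l3 (8.53 ± 0.555) and F8 (1.84 ± 0.242), both apart from the one above. In fl/fl livers Clec4g (23.0 ± 2.21 FPKM), Oit3 (17.6 ± 0.512) and Lyve1 (13.3 ± 1.44) came first, each apart from the next. Stab2 (11.7 ± 0.282), Dnase1l3 (11.3 ± 0.869) and Mrc1 (10.7 ± 0.110) followed and overlapped with their neighbours. Stab1 (8.91 ± 0.702) and Gpr182 (7.94 ± 0.878) overlapped with each other, and F8 (3.00 ± 0.332) was again the lowest (SD, n = 3 each throughout). Stab1 was the seventh of 9 in fl/fl livers and the second in Alb-Cre livers.

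A within-library measure set each marker against 20 genes of endothelium in general, as the difference between its log2 CPM and their mean log2 CPM. For F8 this was -0.43 ± 0.20 in Alb-Cre livers and 0.80 ± 0.18 in fl/fl livers, a difference of -1.23. Oit3 was at 0.57 ± 0.13 in Alb-Cre livers and 1.53 ± 0.06 in fl/fl livers. Dnase1l3 was at 0.84 ± 0.01 in Alb-Cre livers and 1.77 ± 0.07 in fl/fl livers, and Clec4g at 0.89 ± 0.15 in Alb-Cre livers and 1.73 ± 0.09 in fl/fl livers. In each of these the Alb-Cre libraries were all below the fl/fl libraries. The same was true of Lyve1 (0.61 ± 0.24 in Alb-Cre livers and 1.19 ± 0.10 in fl/fl livers) and of Stab2 (2.24 ± 0.06 in Alb-Cre livers and 2.59 ± 0.02 in fl/fl livers). Stab1 (2.95 ± 0.17 in Alb-Cre livers and 2.43 ± 0.11 in fl/fl livers) and Mrc1 (2.29 ± 0.05 in Alb-Cre livers and 2.00 ± 0.04 in fl/fl livers) were higher in every Alb-Cre library. Gpr182 overlapped, at 0.87 ± 0.11 in Alb-Cre livers and 0.88 ± 0.13 in fl/fl livers (SD, n = 3 each throughout). The two-sided exact permutation p was 0.1, the lowest possible here, for the 8 markers without overlap and 1 for Gpr182, all unadjusted.

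**Figure D3:**
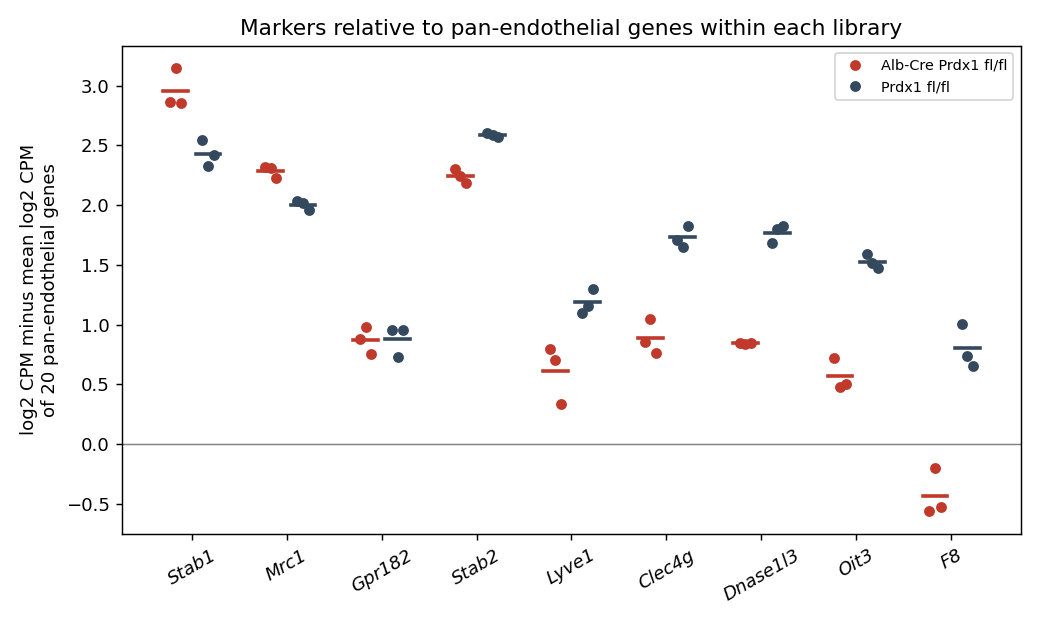
Log2 CPM of each marker minus the mean log2 CPM of 20 pan-endothelial genes in the same library (1 point per mouse, lines at group means, n = 3 each), with Alb-Cre Prdx1 fl/fl in red on the left of each pair and Prdx1 fl/fl in blue on the right. The ratio is independent of library scaling, and 6 markers lie lower, 2 higher and Gpr182 overlapping in Alb-Cre livers.

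The 20 pan-endothelial genes themselves had a median log2 fold change of 0.18, and their summed level was 684 to 762 CPM in Alb-Cre livers and 656 to 672 CPM in fl/fl livers. Of them 14 did not pass, 5 rose and 1 fell, so that 30.0% were called, against 37.9% of all tested genes. The genes that rose were Cdh5 (VE-cadherin, 0.41 ± 0.09), Eng (endoglin, 0.57 ± 0.13), Emcn (0.72 ± 0.19), Cldn5 (a tight junction claudin, 0.92 ± 0.25) and Tie1 (0.39 ± 0.12), and Robo4 fell by 0.46 (SE 0.14). Pecam1 (CD31) stood at 42.5 ± 3.65 CPM in Alb-Cre livers and 39.8 ± 1.36 CPM in fl/fl livers (log2 0.09 ± 0.10, edgeR adjusted p = 0.488). With library sizes alone 12 rose, Pecam1 included, and 0 fell. The number called higher was 2 without Alb-Cre replicate 1 or 3 and 3 without fl/fl replicate 1 or 2, and the calls of Tie1 and Robo4 each held in 1 of the 6 omissions, that of fl/fl replicate 3 for Tie1 and of fl/fl replicate 2 for Robo4. Robo4 was also not called without the count filter (edgeR adjusted p = 0.0631) or with the replicate block (0.0653). Emcn lost its call without Alb-Cre replicate 1 or 3 or fl/fl replicate 1 or 2 (edgeR adjusted p up to 0.0728). Cldn5 lost its call without Alb-Cre replicate 1 or 3 or fl/fl replicate 2 or 3 (edgeR adjusted p up to 0.0818).

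Most tested genes of larger vessels and of capillarised sinusoids rose. Of 17 listed genes, 15 were tested, of which 10 rose and none fell (66.7% called, against 37.9% of all tested genes). The median log2 fold change was 0.98 against 0.05 for all genes. Cd34, the sialomucin used as a sign of capillarisation, had 45.5 ± 0.390 CPM in Alb-Cre livers and 4.88 ± 1.03 CPM in fl/fl livers (log2 3.22 ± 0.17). The basement membrane genes Lamb1 (1.74 ± 0.11), Col4a2 (1.36 ± 0.10) and Col4a1 (0.80 ± 0.09) rose as well (edgeR adjusted p up to 0.000596). The summed level of the whole list was 1089 to 1208 CPM in Alb-Cre livers and 566 to 664 CPM in fl/fl livers, and Apln had no counts in fl/fl livers. In Alb-Cre livers Col4a1, Col4a2 and Vcam1 had the highest levels, at 343 ± 25.8, 271 ± 13.1 and 196 ± 18.0 CPM. In fl/fl livers they stood at 196 ± 13.2, 106 ± 11.5 and 99.5 ± 28.9 CPM. Of the 5 that did not pass, Plvap stood at 111 ± 4.26 CPM in Alb-Cre livers and 111 ± 7.73 CPM in fl/fl livers. The others were Fabp4 (0.09 ± 0.10), Ly6a (0.30 ± 0.35), Bmx (0.38 ± 0.85) and Gja5 (1.18 ± 0.50).

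Stellate cells also make basement membrane collagen. Among 13 genes that mark stellate cells, 10 rose and 2 fell (Ecm1 and Hhip, at -0.55 ± 0.08 and -2.75 ± 0.49). The share called was 92.3%, against 37.9% of all tested genes. The call of Ecm1 was lost with library sizes alone (-0.18), in limma on the deposited FPKM and under the 1.5-fold condition. The median of the 13 was 1.21, with a summed level of 2208 to 2560 CPM in Alb-Cre livers and 905 to 977 CPM in fl/fl livers. Cygb (2.77 ± 0.09), Pdgfrb (2.21 ± 0.13), Dcn (1.29 ± 0.09) and Col1a1 (2.46 ± 0.19) had the smallest p. None of the stellate markers was at 0 in a whole group, and their part in the rise of Col4a1, Col4a2, Lamb1 and Cd34 was not tested.

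**Figure D4:**
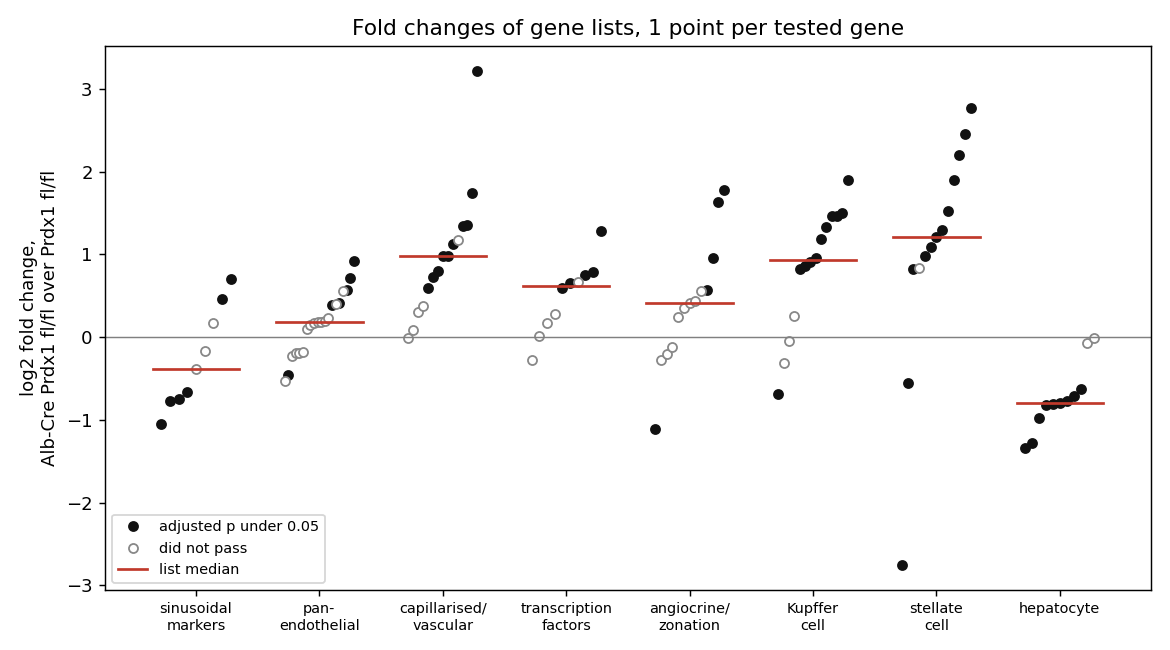
Log2 fold change (Alb-Cre Prdx1 fl/fl over Prdx1 fl/fl) of each tested gene in 8 lists, with filled points for an edgeR adjusted p under 0.05 and red lines at list medians. The 9 sinusoidal markers have a median of -0.39 and the hepatocyte markers one of -0.80, while the pan-endothelial (0.18), capillarised and vascular (0.98), transcription factor (0.62), angiocrine (0.41), Kupffer cell (0.93) and stellate cell (1.21) lists have medians above 0.

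Of 10 transcription factors tied to sinusoidal identity, 5 rose and none passed as lower (50.0% called, against 37.9% of all tested genes). The median was 0.62. Without Alb-Cre replicate 3, 4 were called higher and 1 lower. Gata4, which directs sinusoidal differentiation in mouse liver, had 28.3 ± 3.60 CPM in Alb-Cre livers and 16.4 ± 0.266 CPM in fl/fl livers (0.79 ± 0.12, edgeR adjusted p = 0.00194). Maf, another factor of these cells, had 103 ± 15.5 CPM in Alb-Cre livers and 61.5 ± 2.66 CPM in fl/fl livers (0.75 ± 0.12, edgeR adjusted p = 0.00217). Nr2f2, a venous factor also known from stromal cells, rose by 1.28 ± 0.16, Tfec by 0.65 ± 0.16 and Sox18 by 0.59 ± 0.18. The calls of Tfec and Sox18 were lost without Alb-Cre replicate 1, which left 3, and Sox18 passed only without fl/fl replicate 3 among the 6 omissions. Gata4 and Maf are also expressed outside endothelium, by stellate cells and macrophages for example, and the part of those cells was not tested.

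Among 13 angiocrine and zonation genes, 4 rose and 1 fell (38.5% of the list called, against 37.9% of all tested genes), and the median was 0.41. The matrix protein gene Ltbp4 rose by 1.78 ± 0.11, the hepatocyte growth factor gene Hgf, which stellate cells also make, by 0.96 ± 0.16, the netrin gene Ntn4 by 0.56 ± 0.10 and the Wnt ligand gene Wnt9b, named outside the rule, by 1.63 ± 0.35. Angpt2, an antagonist of TIE2 signalling, fell by 1.105 on the log2 scale (SE 0.24). With library sizes alone 9 were higher. The summed level was 414 to 442 CPM in Alb-Cre livers and 214 to 253 CPM in fl/fl livers. Ltbp4 alone held 216 ± 3.72 CPM of it in Alb-Cre livers and 62.8 ± 8.93 CPM in fl/fl livers, and 8 of the 13 did not pass.

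Other scavenger and endocytic genes numbered 11, of which 4 rose and 1 fell (45.5% called, against 37.9% of all tested genes). Their median was -0.04. Msr1, a macrophage scavenger receptor, rose by 0.98 ± 0.11, the lipoprotein receptor Lrp1 by 0.67 ± 0.09, the clathrin adaptor Dab2 by 1.05 ± 0.16 and the collectin Colec12 by 0.78 ± 0.13. Cd36 fell by 0.47 (SE 0.12). This call was lost with library sizes alone, in limma on the deposited FPKM and under the 1.5-fold condition. It was also lost without Alb-Cre replicate 2 or 3 or fl/fl replicate 1 (edgeR adjusted p up to 0.0537 without those libraries).

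The genes of known ligands of the 9 receptors and proteins changed on both sides. Of 11, 7 rose and 4 fell, with a median of 0.73. Every gene of this list was thus called, against 37.9% of all tested genes (19.9% higher and 18.0% lower). The list was chosen with earlier results of these data known, so its share of called genes is not an independent finding. Among ligands of the stabilins, Sparc rose by 1.75 ± 0.11 and Tgfbi by 1.54 ± 0.10, to 393 ± 42.1 CPM in Alb-Cre livers, against 135 ± 2.25 CPM in fl/fl livers. Postn and Gdf15, named after their values were seen, fell by 0.46 (SE 0.14) and 1.37 (SE 0.22). Col1a1 and Col4a1, whose proteins give collagen fragments that MRC1 binds, rose by 2.46 ± 0.19 and 0.80 ± 0.09. Of the chemokines that GPR182 takes up, all named after their values were seen, Cxcl12 rose by 0.73 ± 0.10, Cxcl10 fell to 5.44 ± 1.55 CPM in Alb-Cre livers, against 18.9 ± 5.78 CPM in fl/fl livers, and Cxcl13 fell by 2.11 (SE 0.59). Cxcl13 lay near the low end of detection, at 0.329 ± 0.160 CPM in Alb-Cre livers and 1.42 ± 0.673 CPM in fl/fl livers. The call of Postn was lost in 11 of 16 alternatives, among them library sizes alone (-0.09 ± 0.15) and the 3 FPKM settings, and that of Cxcl13 in 4, all of them omissions of a library. Accordingly, 2 of the 11 were called lower without Alb-Cre replicate 2, without fl/fl replicate 2 or without fl/fl replicate 3.

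Hepatocyte markers moved with the 4 markers that fell. Of 11, 9 fell and none rose (81.8% called, against 37.9% of all tested genes). Their median was -0.80, and their summed level was 55720 to 70260 CPM in Alb-Cre livers and 95360 to 117400 CPM in fl/fl livers. Tat, Cyp2e1, Asgr1 and Pck1 fell by 1.34, 1.28, 0.78 and 0.97 on the log2 scale. Their part in the level of the sinusoidal markers was not tested.

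The genes nearest to each marker were sought among 13096 tested genes by the root mean square difference of mean-centred log2 CPM over the 6 libraries. These were Ncoa3 and Matk for Stab1, Plppr3 and Gnb1l for Mrc1, Cct2 and Trappc11 for Stab2, Coq4 and Dynll1 for Lyve1, Sec14l4 and Acat2 for Clec4g, Mipep and Wdr18 for Oit3, Zfp970 and Slc25a21 for F8, Ebag9 and Coa3 for Dnase1l3, and Vps54 and Elmo3 for Gpr182. The differences ran from 0.019 for Ebag9 to 0.078 for Slc25a21. With 6 libraries in 2 groups, these profiles are set mostly by the difference between genotypes. None of the 18 genes is on the other gene lists used here.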

How the data were processed

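Liver RNA of 6 mice was measured by poly(A) RNA-seq, per the labels' protocols from dUTP-marked paired-end libraries with unique molecular identifiers. The submitters' processing notes list HISAT2 2.0.4, StringTie 1.3.4d, cutadapt 1.9, edgeR, DESeq2 and UMI-tools, without their roles, and the build mm9. The gene positions in the table match GRCm38, however: 94.2% of 55141 identifiers found in GENCODE M21 had the same chromosome, start and end, among them 7 of the 9 markers (Clec4g and F8 end elsewhere), so positions are those of the table, in GRCm38. Per the file headers, columns named AlbCRE and wt hold the groups. AlbCRE matches the Cre genotype, and wt was taken as the only other genotype.

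The deposited estimated counts were whole numbers whose low values piled up at multiples of 4 (854 genes with a count of 4 in fl/fl replicate 1, against 280 with 3), the cause of which was not tested. Whether they equal independent molecules is therefore unknown, and no counting interval is given. The FPKM values were computed by the authors.

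In R 4.3.3, edgeR 4.0.16 was run on all genes kept by filterByExpr (minimum count 10, minimum total 15), with TMM factors, genotype as the only term, a two-sided quasi-likelihood test and Benjamini-Hochberg adjustment over 18931 genes at a threshold of 0.05. Standard errors come from the F statistic. Log2 CPM used a prior count of 2. Where several rows shared a symbol, the row of highest mean count was used. Alternatives were DESeq2 1.42.0, RLE factors, library sizes alone, no filter, limma 3.58.1 on log2(FPKM + 0.5), with 1 and 0.1 as other pseudocounts, counts divided by 4, a 1.5-fold condition, a replicate block and leaving out each library. The script was checked on simulated data.

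The markers and gene lists were chosen with earlier results of these data known. By rule, all 9 markers were named, with up to 4 genes of smallest p per list and the 2 genes of nearest profile (mean of at least 1 CPM, without Gm and Rik models) per marker. Genes named outside it, mainly to complete short counts, are Tie1, Robo4, Pecam1, Sox18, Wnt9b, Cd36, Fcna, Ecm1, Hhip, Vwf, Postn, Gdf15, Cxcl10, Cxcl12, Cxcl13, Alb, Apln, Has2, Zbtb39 and Nt5dc2. Flt4, Mmrn1, Plvap, Fabp4, Ly6a, Bmx, Gja5, Vcam1, Siglech, Clec9a, Slc40a1, Marco and Cd163 were also named outside it. All of these were named after their values were seen. Promoter windows come from RefSeq tables of GRCm38.p6. The windows of F8 and Stab2 are not shown because 250 and 83 of their bases lie inside the gene as the deposited table places it, against 22 for Mrc1 and 0 for Stab1 and Clec4g.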

Additional observations from a re-analysis of the deposited data

How the results depend on the processing

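Under the 16 alternatives, Stab1, Oit3, F8 and Dnase1l3 kept their direction and their call each time, with log2 fold changes of 0.63 to 1.08, -0.89 to -0.40, -1.15 to -0.49 and -0.81 to -0.36. Clec4g lost its call in 4 of them (library sizes alone and the 3 FPKM settings), and Mrc1 under the 1.5-fold condition alone, which left 1 marker higher. Gpr182 gained a call in the 4 settings in which Clec4g lost one, and Lyve1 without Alb-Cre replicate 1. The sign of Stab2 turned to 0.21 with library sizes alone and to 0.18, 0.17 and 0.18 in limma with pseudocounts of 0.5, 1 and 0.1, none of them past the threshold. Over all genes, 6459 were higher and 1249 lower with library sizes alone, 6671 and 1364 in limma with a pseudocount of 0.5, 6650 and 1364 with 1, and 6667 and 1362 with 0.1, against 3767 and 3415 with TMM factors, and 1993 were lower under the 1.5-fold condition. The cause of these shifts was not tested. Leaving out each library gave 6 to 7 markers called and 5592 to 6749 genes. The labels do not say whether replicate numbers pair the mice. Same-numbered libraries correlated at 0.016, 0.031 and 0.035 in their deviations, and each correlated best with its own number. Such small values from 3 libraries a group cannot settle whether mice were paired. The replicate block called 6476 genes and the same number of markers, 6, with -2.84 for Prdx1. Relative to pan-endothelial genes, 8 markers kept their direction in all 8 alternatives, and Gpr182 ranged from -0.13 to 0.05. With 3 mice a group, exact tests cannot go below p = 0.1.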
